A study of Mus musculus with 46 samples.

Results

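*Apoe* and 9 other genes of lipid handling (*Apoc1*, *Lpl*, *Abca1*, *Abcg1*, *Ch25h*, *Lipa*, *Npc2*, *Soat1* and *Plin2*) were followed through RNA sequencing of mouse brain tissue and sorted brain myeloid cells. The genes were picked by symbol with no threshold on a measured value, though with earlier results of these data known, out of 21231 genes listed in any of 3 expression tables. The SVZ table and the WM and LPS table list 10 of the 10 genes, and the GLOBAL table lists 9, since *Apoc1* was not among the rows used here. Each gene that a table lists reached the limit for testing there, which was an FPKM (fragments mapped to the gene, scaled by gene length and library size) of at least 1 in at least 3 libraries.

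The study asked where microglia come from when they refill a brain emptied by PLX3397, an inhibitor of the CSF1 receptor on which microglia depend, and how the refilled cells differ. The mice were male C57BL/6 wild-type animals, and PLX3397 was given in chow at 600 ppm. SVZ libraries are bulk tissue dissected from the subventricular zone: SVZ control mice on vehicle chow, 14 day PLX3397 mice killed on the drug, and 5 day recovery mice returned to vehicle chow for 5 days after 14 days of drug (n = 5 each). The WM and LPS libraries are CD11b+CD45int cells sorted from whole hemispheres of mice that were 2 months old when treatment began. The mice were either on vehicle throughout (control microglia) or had 14 days of PLX3397 and 28 days of recovery (WM repopulating cells, WM for white matter microglia). These mice had no lipopolysaccharide (LPS, a bacterial cell wall component that provokes inflammation), called 0 hr, or had 0.33 mg/kg LPS intraperitoneally 6 or 24 hr earlier. Control groups had 3, 5 and 4 libraries at 0, 6 and 24 hr, and WM groups had 4 at each time. The GLOBAL libraries are sorted cells of the same kind, from mice also 2 months old when treatment began. They were taken after 7 days of PLX3397 and 28 days of recovery (n = 3) or from vehicle controls (n = 4), with no LPS in either group. An age for the SVZ mice is not given beside that experiment in the paper. The gate selects by surface markers and not by origin, so a cell that survived the drug and a cell formed later are not separated within a WM or GLOBAL library. The labels number the replicates without naming animals, and the study's methods count n in mice, so a replicate is taken as a mouse.

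Apolipoprotein E is the main carrier of cholesterol between brain cells, secreted mostly by astrocytes at rest and by microglia that are activated or engulf debris. The protein is loaded with lipid at the cell surface by the efflux pumps ABCA1 and ABCG1, is taken up by receptors of other cells, and its cholesterol is freed in lysosomes by the lipase LIPA and handed on by NPC2. Surplus cholesterol is then esterified by SOAT1 and stored in droplets coated by perilipin 2 (PLIN2), or turned by cholesterol 25-hydroxylase (CH25H) into an oxysterol that signals to sterol sensors and to immune cells.

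In the RefSeq annotation of GRCm38.p6, *Apoe* lies at chr7:19696244-19701310, 3584 bases from *Apoc1* (chr7:19689480-19692659), with 0 other genes listed between them. *Ch25h* (chr19:34473783-34475148) and *Lipa* (chr19:34492316-34527474) are a second pair of neighbours, 17167 bases apart on the minus strand with 0 genes listed between. The other members are *Abca1* (chr4:53030789-53159988), *Plin2* (chr4:86626910-86670217), *Lpl* (chr8:68880555-68906932), *Abcg1* (chr17:31057694-31117984), *Npc2* (chr12:84754559-84773112) and *Soat1* (chr1:156428108-156474328). 

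The 250 bases before the start site are shown for *Apoe*, on which the WM comparison turns, and for 3 members called at 6 hr after LPS in both kinds of sorted cells, of which *Ch25h* and *Plin2* rose and *Lipa* fell. RefSeq windows matched 7 of the 10 members. All 4 shown are minus-strand sequences written 5′ to 3′, at chr7:19699189-19699438 (*Apoe*, the first of 3 listed start sites, inside the annotated span of the gene), chr19:34475149-34475398 (*Ch25h*), chr19:34527475-34527724 (*Lipa*) and chr4:86670060-86670309 (*Plin2*). Capitals mark matches on either strand to the letters GGGAAA (a half-site of NF-kB, the transcription factor of inflammatory signalling), TATAAA (the TATA box), to CCAAT (the CCAAT box) and to AGGTCA (a half-site of nuclear receptors such as LXR and PPAR).
Apoe: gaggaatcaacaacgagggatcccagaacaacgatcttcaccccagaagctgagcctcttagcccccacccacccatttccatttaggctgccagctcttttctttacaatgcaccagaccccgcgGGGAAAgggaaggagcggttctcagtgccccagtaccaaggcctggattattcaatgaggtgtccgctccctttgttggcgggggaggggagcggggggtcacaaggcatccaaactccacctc
Ch25h: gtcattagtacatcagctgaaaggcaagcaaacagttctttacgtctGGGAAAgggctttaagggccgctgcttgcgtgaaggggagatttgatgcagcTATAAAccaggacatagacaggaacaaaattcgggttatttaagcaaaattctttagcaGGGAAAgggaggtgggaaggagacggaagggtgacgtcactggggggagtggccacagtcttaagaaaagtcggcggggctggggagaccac
Lipa: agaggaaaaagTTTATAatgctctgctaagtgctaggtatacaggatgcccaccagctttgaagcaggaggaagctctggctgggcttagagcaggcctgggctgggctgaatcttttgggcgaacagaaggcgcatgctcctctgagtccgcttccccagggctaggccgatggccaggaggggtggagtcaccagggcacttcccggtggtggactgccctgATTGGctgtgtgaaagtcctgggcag
Plin2: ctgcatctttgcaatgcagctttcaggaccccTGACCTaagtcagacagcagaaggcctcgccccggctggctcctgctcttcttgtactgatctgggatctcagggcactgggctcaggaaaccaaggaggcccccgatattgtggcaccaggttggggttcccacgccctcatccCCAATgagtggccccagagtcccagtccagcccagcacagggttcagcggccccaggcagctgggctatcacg
The further motifs GGGCGG and CACGTG were searched and had no match in these 4 windows, and no matches overlapped. The *Ch25h* window holds GGGAAA with its first base at -203 and -92 from the start site and TATAAA at -151, and the *Apoe* window holds GGGAAA at -124. In *Lipa* the matches are TATAAA at -239 and CCAAT at -26, and in *Plin2* they are AGGTCA at -218 and CCAAT at -73. Over the same window in 27025 genes, GGGAAA was found in 21.9%, TATAAA in 13%, CCAAT in 34.5%, AGGTCA in 13.8%, GGGCGG in 32.9% and CACGTG in 6.05%, so none of these matches is rare, and a match is not a site of binding.

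The depth recovered from the steps of the FPKM values was 4.57 to 10.6 megareads (Mreads) per library in SVZ, 5.24 to 10.4 Mreads in the WM and LPS experiment and 2.21 to 5.37 Mreads in GLOBAL. Of 12 microglial markers, 12 were listed in each table, with 15608 to 37096 summed FPKM in the WM and LPS libraries. Neutrophil markers were also present in the sorted libraries, at 435 to 15307 summed FPKM in the WM and LPS experiment and 1284 to 23181 in GLOBAL. SVZ control replicate 1 stood apart, with choroid plexus markers at 21648 summed FPKM, beside 23.8 in the lowest control library. Each table has its own normalization, and tests with limma were run within a table on log2(FPKM + 1), and genes with an adjusted p under 0.05 over all tested genes are referred to as called. Log2 fold changes are on this scale, on which the change of a low gene comes out smaller than it is.

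In SVZ tissue, *Apoe* stayed at about its control level when the microglial markers were nearly gone. *Apoe* was the gene with the 6th highest mean FPKM of the table. Its levels in SVZ control were 4318, 3750, 3874, 4363 and 4255 FPKM, at 14 day PLX3397 they were 4268, 4318, 3827, 4444 and 3897 FPKM, and at 5 day recovery they were 4150, 3995, 3407, 3964 and 4930 FPKM. The 3 groups overlapped almost wholly, and the 5 day recovery group was the most spread. *Apoe* was at 101% ± 6.62 (SD, n = 5) of the control mean at 14 day PLX3397 and 99.5% ± 13.3 at 5 day recovery, whereas the summed microglial markers were at 4.87% ± 0.38 and 9.48% ± 1.16. Summed astrocyte markers were at 108% ± 4.83 and 132% ± 24.8 of control. The log2 fold change of *Apoe* was 0.01 at 14 day PLX3397 (95% interval -0.20 to 0.23, adjusted p = 0.999) and -0.02 at 5 day recovery (95% interval -0.23 to 0.20, adjusted p = 0.953). In bulk tissue alone, fewer cells of a type and less RNA per cell cannot be told apart. For microglia, the paper reports a loss of cells, from staining and lineage tracing in other mice.

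**Figure D1:**
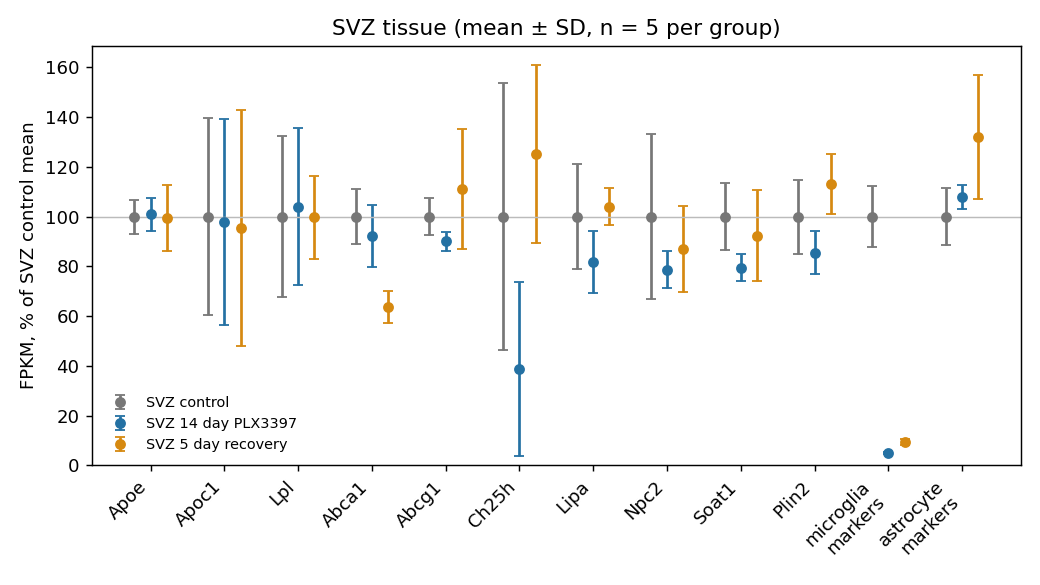
FPKM of the 10 genes in SVZ tissue as percent of the SVZ control mean (y axis), with summed microglia and astrocyte markers at the right. Points are means and bars SD over 5 libraries per group; *Apoe* stays near 100%, *Abca1* at 5 day recovery is at 63.8%, and the microglia markers are at 4.87% and 9.48%.

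The cholesterol efflux pump *Abca1* was the member that changed in SVZ tissue. Its levels were 4.52, 4.03, 3.45, 4.56 and 3.99 FPKM in SVZ control and 3.97, 3.53, 3.57, 4.6 and 3.27 FPKM at 14 day PLX3397. At 5 day recovery they were 2.48, 3.09, 2.54, 2.46 and 2.54 FPKM. Each of the 5 recovery libraries was below each control and each 14 day PLX3397 library. Against control the log2 fold change at 5 day recovery was -0.49 (SE 0.10, adjusted p = 0.0101), and *Abca1* was at 63.8% ± 6.4 of the control mean. The call held in every alternative run, the one without SVZ control replicate 1 included (adjusted p from 0.00627 to 0.0383). Against 14 day PLX3397 the log2 fold change was -0.40 (adjusted p = 0.0974), so the step between 14 day PLX3397 and 5 day recovery was not called. In the same recovery libraries, erythrocyte markers (4 of 5 listed) were at 331% ± 188 of control. Neutrophil markers were at 468% ± 337, on 2 of 8 markers and only 1.71 to 15 summed FPKM. Microglial markers were at 9.48% ± 1.16, border-associated macrophage markers at 39.8% ± 12.5 (5 of 8 listed) and oligodendrocyte precursor markers at 70.4% ± 21.6. The part of these lists in the *Abca1* result was not tested.

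Of the 10 members, 0 were called at 14 day PLX3397 against control (beside 1.26% of the 14151 genes tested, and 866 genes at an unadjusted p under 0.05), 1 at 5 day recovery against control (beside 1.27%) and 0 at 5 day recovery against 14 day PLX3397 (beside 0.325%, and 2338 genes at an unadjusted p under 0.05). The median log2 fold change of the members was -0.17, 0.01 and 0.15 in these comparisons, beside 0.01, -0.01 and -0.01 over all genes. *Abcg1*, the second efflux pump, had 55.9 ± 4.15, 50.3 ± 2.13 and 62.1 ± 13.5 FPKM in the same order of groups (control, on drug, recovery), with overlapping groups. *Ch25h* was close to the limit of detection, at 2 to 16 reads in control, 1 to 9 at 14 day PLX3397 and 4 to 13 at 5 day recovery. Its mean was 0.752 ± 0.403, 0.291 ± 0.262 and 0.94 ± 0.269 FPKM, and the log2 fold change of 0.60 between 14 day PLX3397 and 5 day recovery did not pass the test (adjusted p = 0.151).

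The lysosomal, esterification and droplet genes had their lowest means at 14 day PLX3397, with overlap between every pair of groups that are neighbours in the order of means. *Lipa* had 14.5 ± 3.05, 11.8 ± 1.81 and 15.1 ± 1.07 FPKM in control, on drug and in recovery, *Soat1* had 6.76 ± 0.915, 5.37 ± 0.366 and 6.24 ± 1.24 FPKM, and *Plin2* had 9.32 ± 1.39, 7.97 ± 0.808 and 10.5 ± 1.12 FPKM. None of these 3 was called in any SVZ comparison. *Npc2*, whose protein hands on cholesterol freed in the lysosome, was at 62.3 FPKM in SVZ control replicate 1, the library with choroid plexus markers. It was at 30.7 to 35.2 FPKM in the other 4 control libraries. *Apoc1* (an apolipoprotein that slows lipoprotein uptake) and *Lpl* (the lipase of circulating lipoproteins) were low, with group means of 5.4 to 5.67 and 5.38 to 5.63 FPKM, and *Apoc1* rested on 8 to 42 reads per library.

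In sorted cells, *Apoe* was higher in WM repopulating cells than in control microglia after LPS. At 0 hr, control microglia had 2538, 1628 and 1605 FPKM and WM repopulating cells had 3291, 3637, 2775 and 2267 FPKM. At 6 hr after LPS, control microglia had 750, 530, 464, 611 and 530 FPKM and WM repopulating cells had 1516, 1692, 936 and 1349 FPKM. At 24 hr, the levels were 1216, 1146, 871 and 644 FPKM in control microglia and 3746, 4047, 4026 and 2045 FPKM in WM repopulating cells. The groups overlapped at 0 hr, and every WM library was above every control library at 6 and 24 hr.

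The log2 fold change of *Apoe* in WM repopulating cells against control microglia was 0.65 at 0 hr (SE 0.26, adjusted p = 0.291, not called), 1.24 at 6 hr (SE 0.23, adjusted p = 0.011) and 1.83 at 24 hr (SE 0.24, adjusted p = 9.49e-05). At 24 hr this corresponds to a 3.55-fold difference. The call at 6 hr was lost without WM 6 hr replicate 1 (adjusted p = 0.0566) or replicate 2 (adjusted p = 0.072), and over its alternatives the adjusted p ranged from 0.00215 to 0.072. In order of the group means, *Apoe* ran from WM 24 hr (3466 ± 957 FPKM) through WM 0 hr (2993 ± 600), control 0 hr (1923 ± 533), WM 6 hr (1373 ± 323) and control 24 hr (970 ± 263) to control 6 hr (577 ± 110). Each pair of neighbours in that order overlapped.

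**Figure D2:**
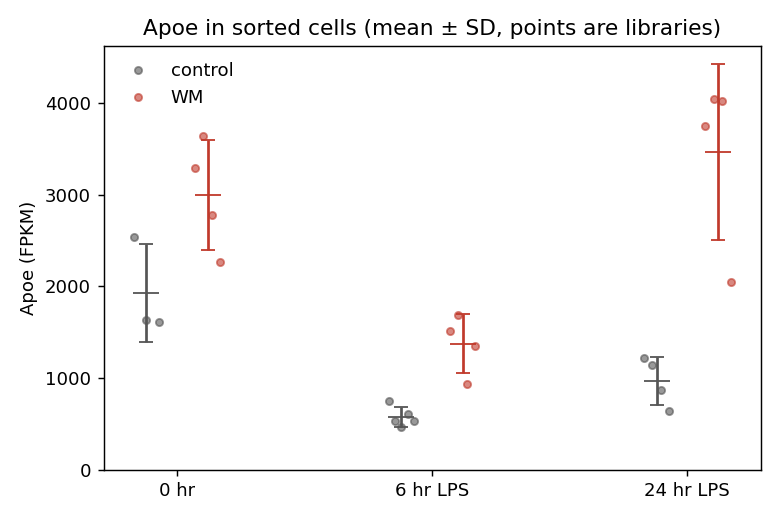
*Apoe* in FPKM (y axis, from 0) in control microglia (grey) and WM repopulating cells (red) at 0, 6 and 24 hr (x axis). Points are libraries and bars are mean ± SD; the WM libraries lie between 936 and 1692 FPKM at 6 hr and between 2045 and 4047 FPKM at 24 hr, above all control libraries of the same time.

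*Apoe* was the 1 member of 10 called at 6 hr between the WM and control cells (beside 0.323% of 12684 genes) and the 1 called at 24 hr (beside 3.97%), and 0 were called at 0 hr (beside 1.21%, and 1514 genes at an unadjusted p under 0.05). The median log2 fold change of the members was 0.17, 0.18 and 0.04 at 0, 6 and 24 hr, beside 0.01, 0.00 and 0.02 over all genes. Markers of other cells differed between some of these groups. At 24 hr, microglial markers summed to 16423 to 27375 FPKM in control and 23062 to 30117 FPKM in WM libraries, neutrophil markers to 6400 to 15307 and 3189 to 7209 FPKM, and border-associated macrophage markers to 76.8 to 99.2 and 25.6 to 51.8 FPKM. At 6 hr, the same 3 lists summed to 15608 to 17884 and 16834 to 20021 FPKM, 903 to 5776 and 435 to 10255 FPKM, and 60.8 to 102 and 61.4 to 100 FPKM. Astrocyte markers, of the cells richest in *Apoe* at rest, summed to 40.6 to 45.1 FPKM in control and 38.7 to 59.1 FPKM in WM libraries at 24 hr. Further lists did not overlap between WM and control libraries. At 24 hr these were choroid plexus markers (36.3 to 55.9 FPKM in control and 12.2 to 32.6 in WM), endothelial markers (7.57 to 12.7 and 1.51 to 7.19, 3 of 5 markers listed) and oligodendrocyte precursor markers (0.231 to 0.398 and 0.976 to 1.27), and the last of these also at 6 hr (0.564 to 0.89 and 2.47 to 4.32). At 0 hr, choroid plexus markers were at 76.5 to 222 FPKM in control and 283 to 740 in WM, astrocyte markers at 58.4 to 63.6 and 39.3 to 54.1, and endothelial markers at 8.32 to 12.8 and 2.4 to 5.07. Neuroblast markers (2 of 4 listed) were very low at 0 hr, at 0.0176 to 0.0648 FPKM in control and 0.0753 to 0.183 in WM. The part of these markers in the *Apoe* difference was not tested.

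*Npc2* had the lowest p-value after *Apoe* at each time in this comparison, with higher WM means and no call, though other members had larger log2 fold changes, such as *Ch25h* (1.09 at 0 hr and 0.99 at 24 hr) and *Abcg1* (0.64 at 6 hr and 0.57 at 24 hr), neither of which was called. Its mean was 228 ± 14.1 and 267 ± 22.4 FPKM at 0 hr in control and WM cells, 259 ± 25.3 and 316 ± 26.5 FPKM at 6 hr, and 247 ± 29.1 and 299 ± 24.2 FPKM at 24 hr. All 4 WM libraries at 6 hr (282 to 341 FPKM) were above the 5 controls (217 to 278 FPKM), while the groups overlapped at 0 and 24 hr. The log2 fold changes were 0.22, 0.29 and 0.28, with adjusted p of 0.494, 0.36 and 0.192 (limma).

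LPS lowered *Apoe*, *Abcg1* and *Lipa* and raised *Ch25h* and *Plin2* at 6 hr in both kinds of cells. Of the 10 members, 6 were called at 6 hr in control microglia (3 higher and 3 lower, beside 42.5% of all genes called) and 5 in WM repopulating cells (2 higher and 3 lower, beside 38.8%). At 24 hr, 3 were called in control microglia (2 higher and 1 lower, beside 21.3%) and 2 in WM repopulating cells (1 higher and 1 lower, beside 18.8%). These counts rest on 10 genes and were not tested against the background, so they are no result about the members as a group. The median log2 fold change of the members was 0.32 and 0.34 at 6 and 24 hr in control microglia and 0.23 and 0.21 in WM repopulating cells, beside 0.00 to 0.02 over all genes. The comparisons of control microglia share the same 3 libraries at 0 hr, and those of WM repopulating cells the same 4.

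**Figure D3:**
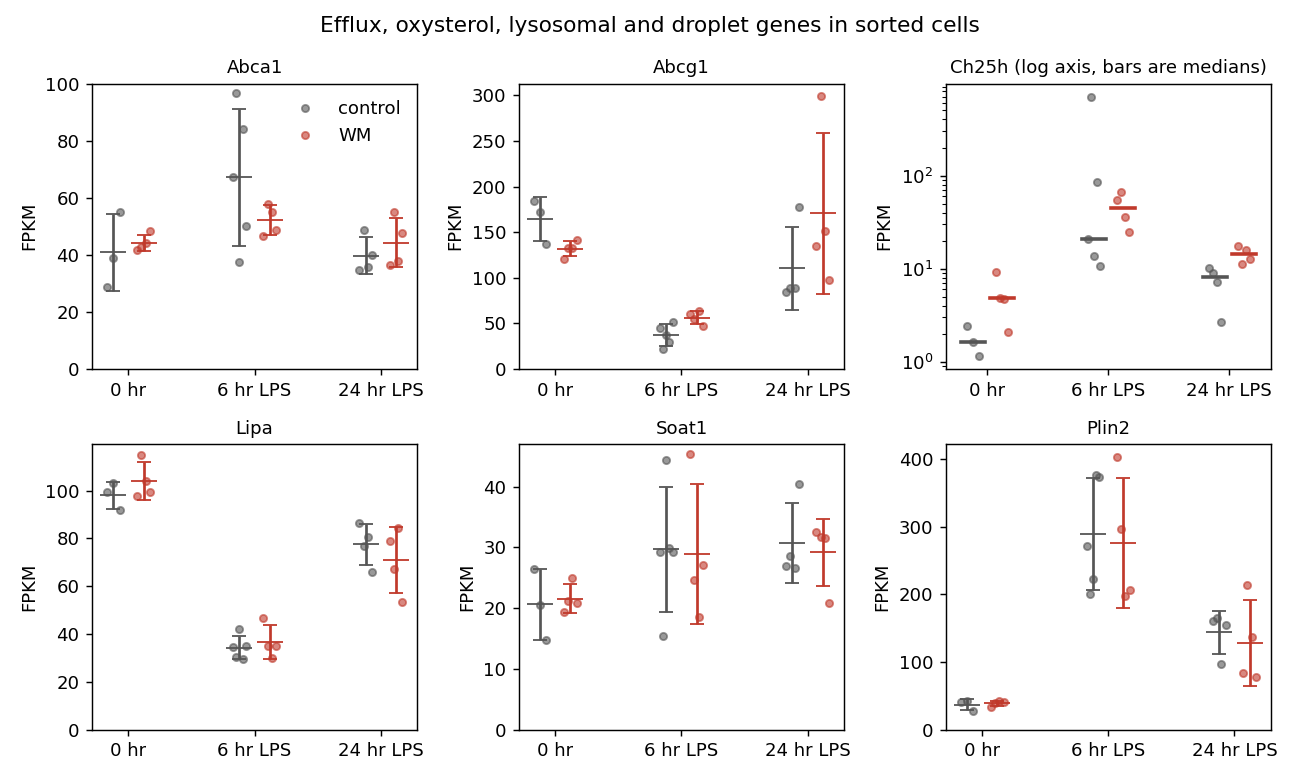
FPKM (y axes) of 6 genes in control microglia (grey) and WM repopulating cells (red) at 0, 6 and 24 hr. Points are libraries and bars are mean ± SD, except for *Ch25h*, which is on a log axis with medians; *Plin2* and *Ch25h* are highest and *Abcg1* and *Lipa* lowest at 6 hr.

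*Apoe* fell by 1.72 on the log2 scale at 6 hr in control microglia (SE 0.25, adjusted p = 6.76e-06) and by 1.13 in WM repopulating cells (SE 0.24, adjusted p = 0.000668). At 24 hr it was still lower than at 0 hr in control microglia (fold change 0.501, 95% interval of the log2 value -1.54 to -0.45, adjusted p = 0.00824), and in WM repopulating cells the log2 fold change was 0.18 (adjusted p = 0.655). The control call at 24 hr was lost without control 0 hr replicate 1, the highest of its group (adjusted p = 0.065, over alternatives from 0.00634 to 0.065).

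The difference between the cells in this response did not pass the test of the interaction itself. For *Apoe*, the signed log2 change from 0 hr in WM cells minus that in control cells was 0.59 at 6 hr, from changes of -1.13 and -1.72 (95% interval -0.14 to 1.31, adjusted p = 0.749) and 1.18 at 24 hr (95% interval 0.44 to 1.92, adjusted p = 0.254). For *Abcg1* the same differences were 0.95 at 6 hr (95% interval 0.13 to 1.76, adjusted p = 0.648) and 0.88 at 24 hr (95% interval 0.05 to 1.71, adjusted p = 0.536). Of the 10 members, 0 were called in either test, in which 0.0237% and 0.0867% of the 12684 genes were called, and 913 and 1105 genes had an unadjusted p under 0.05.

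The 2 efflux pumps moved apart at 6 hr in control microglia. *Abcg1* had 184, 172 and 137 FPKM in control microglia at 0 hr, 44.9, 22, 36.7, 29.9 and 51.9 FPKM at 6 hr, and 84.5, 89.2, 88.9 and 178 FPKM at 24 hr. In WM repopulating cells it had 121, 133, 133 and 141 FPKM at 0 hr, 60.5, 54.2, 63.7 and 46.9 FPKM at 6 hr, and 135, 299, 151 and 97.5 FPKM at 24 hr. All 6 hr libraries of a kind were below all its 0 hr libraries, and the 24 hr libraries were spread over the 0 hr level in WM cells. The log2 fold change at 6 hr was -2.17 in control microglia (SE 0.28, adjusted p = 1.50e-06) and -1.22 in WM repopulating cells (SE 0.27, adjusted p = 0.00103). *Abca1* went the other way in control microglia, from 40.9 ± 13.4 FPKM at 0 hr to 67.2 ± 24.1 FPKM at 6 hr (log2 fold change 0.67, SE 0.23, adjusted p = 0.0213). These groups overlapped, with 28.6 to 55.2 FPKM at 0 hr and 37.6 to 96.6 FPKM at 6 hr, and the call was lost without any one of 4 libraries, control 0 hr replicate 1 or 2 or control 6 hr replicate 2 or 4 (adjusted p of 0.0585 to 0.172), and with only the groups compared in the fit (adjusted p = 0.115). Replicates 2 and 4 at 6 hr had the highest *Abca1* levels, 96.6 and 84.3 FPKM, and also the highest neutrophil markers of their group, 5776 and 4195 summed FPKM, whose part in the result was not tested. In WM repopulating cells *Abca1* had 44.3 ± 2.87, 52.1 ± 5.27 and 44.3 ± 8.7 FPKM at 0, 6 and 24 hr and was not called.

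*Ch25h*, the enzyme that makes 25-hydroxycholesterol, had the largest fold change of the members at 6 hr, and a single library carried much of the control mean. In control microglia it was at 2.42, 1.61 and 1.15 FPKM at 0 hr and at 20.8, 705, 13.5, 85.4 and 10.6 FPKM at 6 hr. In WM repopulating cells it was at 9.22, 4.8, 4.75 and 2.09 FPKM at 0 hr and at 54.5, 66.6, 35.8 and 24.9 FPKM at 6 hr. The groups at 0 and 6 hr did not overlap in either kind of cell, and the 6 hr control libraries were spread more widely than the 6 hr WM libraries. On the log2 scale the fold change was 4.13 in control microglia (SE 0.81, adjusted p = 0.000243) and 2.93 in WM repopulating cells (SE 0.79, adjusted p = 0.00468). Without the control library at 705 FPKM the control value was 3.15 (adjusted p = 2.62e-05). That library, control 6 hr replicate 2, and the next, replicate 4, also had the highest neutrophil markers of their group, at 5776 and 4195 summed FPKM, and the part of these in the *Ch25h* level was not tested. At 24 hr *Ch25h* was at 7.21 ± 3.27 FPKM in control microglia and 14.2 ± 2.87 FPKM in WM repopulating cells, with all 4 WM libraries (11.1 to 17.4 FPKM) above the 4 controls (2.66 to 10.1 FPKM), a difference that was not called (adjusted p = 0.557).

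*Lipa*, the lysosomal acid lipase next to *Ch25h* on the chromosome, fell with little spread between libraries. It had 99.2, 103 and 91.9 FPKM at 0 hr, 34.5, 30.3, 42.2, 29.7 and 35 FPKM at 6 hr and 86.4, 76.9, 80.4 and 66 FPKM at 24 hr in control microglia. In WM repopulating cells it had 97.5, 115, 104 and 99.4 FPKM at 0 hr, 46.6, 35, 29.9 and 34.9 FPKM at 6 hr and 79, 67, 84.2 and 53.4 FPKM at 24 hr. The 6 hr libraries formed the lowest set in each kind of cell, with no overlap with either other time. The log2 fold change at 6 hr was -1.50 in both kinds of cells (SE 0.15, adjusted p = 3.73e-08 in control and 2.86e-08 in WM). At 24 hr it was -0.34 in control microglia (adjusted p = 0.131) and -0.56 in WM repopulating cells (SE 0.15, adjusted p = 0.00876), and the difference between the cells in the change to 24 hr was -0.22 (95% interval -0.67 to 0.23). *Npc2* was not called at 6 or 24 hr in either kind of cell.

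*Plin2*, the coat protein of lipid droplets, rose in every LPS group. It had 40.7, 42.2 and 27.8 FPKM at 0 hr, 272, 200, 223, 377 and 374 FPKM at 6 hr and 160, 165, 97 and 155 FPKM at 24 hr in control microglia. In WM repopulating cells the levels were 33.1, 39.4, 41.8 and 41.2 FPKM at 0 hr, 403, 296, 198 and 207 FPKM at 6 hr and 83.6, 214, 137 and 78.4 FPKM at 24 hr. Every LPS library was above every 0 hr library of its kind. The fold change was 7.52 at 6 hr (adjusted p = 2.62e-08) and 3.81 at 24 hr (adjusted p = 6.47e-05) in control microglia, and 6.69 at 6 hr (adjusted p = 4.72e-08) and 2.99 at 24 hr (adjusted p = 0.000265) in WM repopulating cells. *Soat1*, which esterifies cholesterol for storage, was not called, with group means of 20.6 to 21.5 FPKM at 0 hr and 28.9 to 30.6 FPKM after LPS, and it was called at 6 hr in control microglia only without control 6 hr replicate 2, the lowest of its group at 15.4 FPKM.

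Monocyte markers summed to 104 to 398 FPKM at 0 hr, 1180 to 3308 FPKM at 6 hr and 131 to 665 FPKM at 24 hr over both kinds of cells, and microglial markers to 30237 to 37096, 15608 to 20021 and 16423 to 30117 FPKM. Lists of other cells moved as well, among them choroid plexus markers between 0 and 24 hr. These were at 76.5 to 222 FPKM and then 36.3 to 55.9 in control libraries, and at 283 to 740 and then 12.2 to 32.6 in WM libraries. The part of all these lists in the changes after LPS was not tested. *Lpl* ranged from 0.895 to 8.48 FPKM over the 24 libraries and was called in no comparison. *Apoc1* had 0 to 17 reads per library in sorted cells. It was at 0 in control 0 hr replicates 2 and 3, where 3 reads would give 0.807 and 0.866 FPKM, and at 0.643 ± 1.11 FPKM over that group. Its rise to 2.75 ± 1.18 FPKM in control microglia at 24 hr (log2 fold change 1.33, adjusted p = 0.0346) was lost in 6 of 13 alternatives (adjusted p from 0.0071 to 0.159), among them those without control 0 hr replicate 2 or 3 or without control 24 hr replicate 1, 2 or 3.

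**Figure D4:**
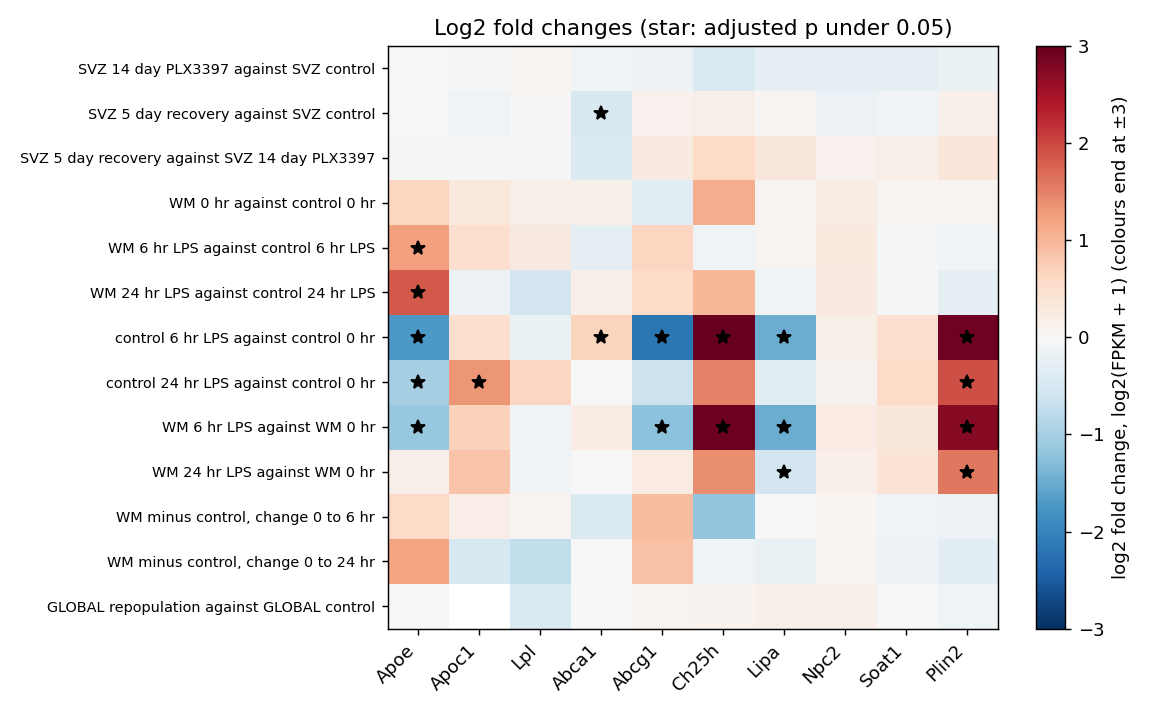
Log2 fold change on the log2(FPKM + 1) scale (colour, ending at ±3) of the 10 genes (x axis) in 13 comparisons (y axis), with a star where the adjusted p is under 0.05 and a blank where *Apoc1* is not listed. The stars number 19, of which 16 are in the 4 comparisons with 0 hr.

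After GLOBAL repopulation, the 9 listed members showed no call. *Apoe* had 595, 555, 558 and 670 FPKM in GLOBAL control and 463, 772 and 603 FPKM after GLOBAL repopulation, and the repopulation libraries lay on both sides of the controls. The log2 fold change was 0.02 (95% interval -0.38 to 0.41, adjusted p = 0.986). *Lpl* was the member whose groups did not overlap, at 2.47, 2.69, 3.38 and 2.39 FPKM in control and 1.46, 1.88 and 1.75 FPKM after repopulation. Its log2 fold change was -0.46 (SE 0.20, adjusted p = 0.537), and it rested on 16 to 47 reads per library. The share of all genes whose groups did not overlap was not computed, so this separation is given as a description only. Limma called 0 of the 9 members beside 0% of the 16651 genes tested, with 1504 genes at an unadjusted p under 0.05. *Abca1* (67.1 ± 3.98 and 66.4 ± 3.61 FPKM), *Abcg1* (147 ± 10.9 and 156 ± 2.12 FPKM) and *Npc2* (122 ± 13 and 136 ± 3.69 FPKM) were close in control and repopulated cells, with 95% intervals of the log2 difference from -0.28 to 0.25, -0.17 to 0.36 and -0.12 to 0.45. *Lipa*, *Soat1*, *Plin2* and *Ch25h* had 41.1 ± 10.4, 17.4 ± 3.16, 28 ± 11.1 and 2.09 ± 0.846 FPKM in control and 44.7 ± 1.26, 17.4 ± 0.838, 24.1 ± 1.52 and 2.27 ± 0.703 FPKM after repopulation. Neutrophil markers were at 2159 to 23181 summed FPKM in GLOBAL control and 1284 to 4668 after repopulation. Border-associated macrophage markers (33.3 to 55.9 and 19.3 to 32.9 FPKM) and astrocyte markers (32.6 to 36.4 and 26.1 to 31.4 FPKM, 9 of 10 listed) did not overlap between these groups, and the part of these 3 lists was not tested.

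Among 80 further lipid genes in 7 lists, the SVZ fit called 4 of 64 tested genes lower and 0 higher at 14 day PLX3397, 3 lower and 0 higher at 5 day recovery, and 0 between those groups. Over all genes 1.26% and 1.27% were called against control, and most of these calls were lower too (171 of 179 and 154 of 180). *Trem2*, a microglial receptor that binds lipids and APOE, was at 22.9 ± 4.28, 0.0818 ± 0.183 and 0.722 ± 0.467 FPKM in control, on drug and in recovery (log2 fold change -4.46 and -3.82 against control). *Gpr183*, the receptor for oxysterols made from the product of CH25H, was at 1.2 ± 0.339, 0.295 ± 0.0452 and 0.275 ± 0.141 FPKM (log2 fold change -0.75 and -0.78). The transporter gene *Abca9* was at 1.16 ± 0.167, 0.313 ± 0.139 and 0.254 ± 0.12 FPKM (log2 fold change -0.72 and -0.79). The adjusted p of these 6 changes was 1.94e-11 and 2.85e-10 for *Trem2*, 0.000747 and 0.000557 for *Gpr183*, and 0.000347 and 0.000159 for *Abca9*.

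Between WM repopulating cells and control microglia, 64 of the 80 lipid genes were tested, and 1, 1 and 3 were called at 0, 6 and 24 hr, beside 1.21%, 0.323% and 3.97% of all genes. These counts are too small to set the lists apart from that background. *Mgll*, which breaks down monoacylglycerol, was lower in WM cells at 0 hr (11.8 ± 1.83 against 23.3 ± 0.583 FPKM, adjusted p = 0.0384), as the 1 gene called there, and at 24 hr (4.3 ± 1.59 against 9.04 ± 1.26 FPKM, adjusted p = 0.00892). The scavenger receptor *Cd36* was the 1 gene called at 6 hr, higher in WM cells at 4.94 ± 1.12 against 1.14 ± 0.652 FPKM (adjusted p = 0.00399). At 24 hr, 1 was higher and 2 were lower. *Angptl4*, an inhibitor of lipoprotein lipase, was lower at 0.383 ± 0.204 against 1.87 ± 0.118 FPKM (adjusted p = 0.0419), and the lipase gene *Lipe* was higher at 19.1 ± 2.91 against 12.7 ± 2.64 FPKM (adjusted p = 0.045). In the tests of the difference in response, 0 of the 64 were called, and in GLOBAL 0 of 69, beside 0.0237%, 0.0867% and 0% of all genes, so a count of 0 says nothing particular about these lists.

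After LPS, 12 of the 64 lipid genes rose and 21 fell at 6 hr in control microglia, and 13 rose and 22 fell in WM repopulating cells. At 24 hr, 12 rose and 9 fell in control microglia and 10 rose and 9 fell in WM repopulating cells. Over all genes 42.5% and 38.8% were called at 6 hr and 21.3% and 18.8% at 24 hr in control and WM cells, so the share of list genes called was above that over all genes in each of the 4 comparisons, a difference that was not tested. Of the 12 genes of lysosomal and endosomal lipid handling, which *Lipa* and *Npc2* were not counted among, 9 fell and 0 rose at 6 hr in control microglia and 9 fell and 1 rose in WM repopulating cells, with medians of -0.68 and -0.74 on the log2 scale, beside 0.01 and 0.00 over all genes. Of 3 fatty acid binding genes tested, 3 rose at 6 hr in each kind of cell, with medians of 2.26 and 2.19, a description of 3 genes beside 42.5% and 38.8% of all genes called. Of 13 regulators and transporters of sterol efflux, 1 rose and 5 fell in each kind of cell at 6 hr, beside the same background.

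The list genes with the largest absolute log2 changes were *Msr1*, *Nr1h3* and *Fabp4* at 6 hr and *Msr1*, *Nr1h3* and *Soat2* at 24 hr, in either kind of cell. *Msr1*, a scavenger receptor of macrophages, went from 2.17 ± 0.998 to 129 ± 21.1 and 54.6 ± 16.1 FPKM at 0, 6 and 24 hr in control microglia and from 2.02 ± 1.08 to 126 ± 37.6 and 52.3 ± 25.8 FPKM in WM repopulating cells. *Nr1h3*, which encodes the sterol sensor LXR alpha that drives *Apoe*, *Abca1* and *Abcg1*, went from 0.842 ± 0.807 to 19.8 ± 13.4 and 24.3 ± 8.41 FPKM in control microglia and from 1.08 ± 0.728 to 22.3 ± 19.9 and 15.9 ± 9.36 FPKM in WM repopulating cells. *Fabp4*, which carries fatty acids, went at 6 hr from 0.688 ± 0.59 to 24.9 ± 10.1 FPKM in control and from 0.798 ± 0.832 to 23 ± 4.97 FPKM in WM cells. *Soat2*, which like *Soat1* encodes a cholesterol esterifying enzyme, went at 24 hr from 1.4 ± 0.64 to 12.6 ± 1.55 FPKM in control and from 1.54 ± 1.25 to 14.7 ± 2.49 FPKM in WM cells. Their adjusted p ranged from 1.18e-11 to 0.000967.

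The genes whose levels ran most like *Apoe* were taken from genes with a mean of at least 10 FPKM, as a description. Pearson's r was computed on log2(FPKM + 1). Over the 24 WM and LPS libraries, Pearson's r with *Apoe* was 0.902 for *Tnfsf13b*, 0.894 for *H2-DMa*, 0.886 for *Ddx5*, 0.886 for *Pfkfb4* and 0.884 for *Ncstn*, the highest of 5890 genes. Of the members, *Abcg1* (0.733) and *Lipa* (0.667) ran most closely with it and *Plin2* (-0.577) most against it. These libraries share the LPS time course. Over the 15 SVZ libraries the 5 highest of 6504 genes were *Dhrs1* (0.899), *Rabac1* (0.873), *Necap2* (0.871), *Lamp1* (0.858) and *Pdxdc1* (0.837).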

How the data were processed

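According to the study's methods, the authors made cDNA by Smart-seq2, sequenced paired ends, used STAR for alignment and Rsubread for counts per gene. The submitters' processing notes name mm10, STAR, featureCounts, edgeR and limma, and the library protocol in the labels is not that of the methods. The authors deposited FPKM values (called RPKM in the methods) in a table per experiment, and no counts were used here. Reads per library and per member were recovered from the steps of low FPKM values (99.6% to 100% of low genes whole within 0.02 reads) and served as description only. Genes at 1 FPKM or more in at least 3 libraries were tested with limma 3.58.1 (R 4.3.3) on log2 of FPKM plus a pseudocount of 1, with a variance trend, all groups of a table in a single fit, 2-sided p-values and Benjamini-Hochberg adjustment over 14151 (SVZ), 12684 (WM and LPS) and 16651 (GLOBAL) genes. The 10 members, the 7 lipid lists and the marker lists were chosen with earlier results of these data known. By the rule for named genes, all 10 members, the 3 called list genes with the largest absolute log2 change per comparison and the 5 genes most correlated with *Apoe* were named. The fit was tested first on simulated data with 100 genes changed by 1 and 100 by 2 on the log2 scale. The comparisons were SVZ 14 day PLX3397 against control, WM against control at 0 hr, and GLOBAL. In this order, 96, 69 and 67 of the genes changed by 1 were called, and 100, 95 and 91 of those changed by 2. Unchanged genes called were 10, 19 and 7. Alternatives were a pseudocount of 0.1, no filter, quantile normalization, no trend, a replicate block, only the groups compared, and leaving out each library. Coordinates and promoters are from RefSeq on GRCm38.p6.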

Additional observations from a re-analysis of the deposited data

Results flagged for a closer look

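Dixon's gap was looked at in 89 sets of 4 or 5 libraries (each member in each group), and 8 values, from 6 libraries, stood far from the rest of their group, where chance alone gives about 1 in 20 sets. In SVZ tissue these were *Npc2* in SVZ control replicate 1, at 62.3 FPKM beside 35.2 in the nearest library, and *Abca1* in 5 day recovery replicate 2, at 3.09 FPKM beside 2.54. The *Npc2* library is the one with choroid plexus markers at 21648 summed FPKM. In sorted cells, *Ch25h* was at 705 FPKM in control 6 hr LPS replicate 2, beside 85.4 in the nearest library. At 24 hr in control microglia, replicate 4 was high for *Abcg1* (178 FPKM beside 89.2) and *Soat1* (40.4 FPKM beside 28.6), and replicate 3 was low for *Plin2* (97 FPKM beside 155). Control 24 hr replicate 4 also had the lowest microglial markers of its group, at 16423 summed FPKM. At 24 hr in WM repopulating cells, replicate 4 was low for *Apoe* (2045 FPKM beside 3746) and *Soat1* (20.9 FPKM beside 31.5).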

How the results depend on the processing

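Over 495 alternative values of 33 member results, 468 kept their direction and side of the threshold, 14 lost a call and 13 changed sign, all 13 of them for *Apoe* differences close to 0. Under quantile normalization the log2 fold change of *Apoe* was -0.05 at 14 day PLX3397, 0.02 at 5 day recovery and -0.15 after GLOBAL repopulation. Leaving out each library in turn, it ranged from -0.02 to 0.04 at 14 day PLX3397, from -0.09 to 0.05 at 5 day recovery and from -0.17 to 0.20 after GLOBAL repopulation. The members called at 6 hr between WM and control cells were 0 to 1 when a library was left out. With only the groups compared in the fit, 4 members were called in WM cells at 24 hr against 0 hr (*Apoc1*, *Ch25h*, *Lipa* and *Plin2*) in place of 2, and in control microglia *Ch25h* was called and *Apoc1* was not, with 3 members called either way. Without control 24 hr replicate 4, *Abcg1* was also called in control microglia at 24 hr, as 1 of 4 members. The cause of these changes in calls was not tested.

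Same-numbered samples had a correlation of deviations over 0.1 in 5 of 15 pairs in SVZ (-0.155 to 0.486), 7 of 55 in the WM and LPS experiment (-0.19 to 0.266) and 2 of 3 in GLOBAL (0.0562 to 0.137). Not every pair passed 0.1 in any experiment and no source ties the numbers to a shared batch, so they were not taken as pairs, though in GLOBAL all 3 correlations were above 0. With the replicate block, the members called were the same number in each comparison (6 at 6 hr in control microglia and 1 for WM against control at 24 hr), and over all genes 55 in place of 0 were called in GLOBAL, 0 in place of 3 and 6 in place of 11 in the tests of the difference in response to 6 and 24 hr.

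The background counts moved by over 1.5 times in several settings. With only the groups compared, 29 in place of 46 genes were called at 5 day recovery against 14 day PLX3397, 16 in place of 41 and 255 in place of 503 for WM against control at 6 and 24 hr, and 0 in place of 3 and 17 in place of 11 in the tests of the difference in response. A pseudocount of 0.1 gave 1 and 6 there. Leaving out a library gave 153 to 330 genes at 5 day recovery against control (180 with all, 330 without recovery replicate 3), 23 to 86 against 14 day PLX3397, 75 to 108 at 0 hr (154 with all), 23 to 75 at 6 hr, 291 to 438 at 24 hr, 0 to 3 and 6 to 24 for the differences in response, and 0 to 1 in GLOBAL. Low read numbers limit *Ch25h* in SVZ and *Apoc1* in sorted cells.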
